A study of Mus musculus with 16 samples.

Results

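Atf4, which encodes the transcription factor ATF4, was examined together with 8 genes of the amino acid stress response that it controls or accompanies: Trib3, Chac1, Slc7a11, Asns, Ddit3, Ddit4, Psat1 and Phgdh. These 9 genes were taken by symbol from the 55291 genes of the deposited expression table, and all 9 met the expression filter for testing (on average 10 or more normalised counts), which 17757 genes met in all. RNA was measured in 16 libraries from E14Tg2a (129/Ola) mouse embryonic stem cells. In every line the endogenous CTCF, a zinc finger protein that organises chromosome loops, carried a degron, a tag through which the auxin indole-3-acetic acid triggers its degradation. A doxycycline-inducible transgene supplied wild-type CTCF (WT) or CTCF with the R342C, K365T or Q418R change. All groups, WT included, received 500 µM indole-3-acetic acid and 1 µg/ml doxycycline for 2 days, so the WT group was also a degron line kept on its transgene. The LIF groups had 3 µM CHIR99021, 1 µM PD0325901, which inhibits MEK, and LIF, the cytokine leukemia inhibitory factor, added to serum medium, and the no LIF groups spent 3 days without these 3 additions. Each combination of the 4 lines and 2 media had 2 libraries. Each genotype was represented by 1 line, so a difference between genotypes cannot be told apart from a difference between lines. The labels do not state that the 2 libraries of a group came from separate cultures, so the p-values below measure only the spread between these libraries, which may be technical.

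ATF4 is the effector of the integrated stress response. Shortage of amino acids, stress of the endoplasmic reticulum, lack of heme and double-stranded RNA each activate a kinase that phosphorylates eIF2alpha, which slows general translation while the Atf4 message is translated more efficiently. ATF4 protein, often paired with a C/EBP factor, then binds composite sites at genes for amino acid synthesis, amino acid uptake and feedback control. Because much of this control acts on translation, the level of Atf4 RNA is not a measure of ATF4 protein, which was not measured here.

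The composite site has the core TGATGNAA, read on either strand, where N stands for any base. It was searched in the RefSeq promoter windows of GRCm38.p6 (250 bases before to 50 bases after the start of a gene), which contain all 9 genes. Windows of 4 of the 9 genes held a match, beside 4.51% of all 27025 genes with a window (3.97% of the 32851 windows, of which a gene can have several). These 4 are shown, 30 bases each and 5′ to 3′ on the strand of the gene with the matched bases in capitals, because they include both the member with the largest fall (Asns) and the member with the largest rise (Slc7a11) after removal of LIF in WT.
Trib3: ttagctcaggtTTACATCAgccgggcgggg
Chac1: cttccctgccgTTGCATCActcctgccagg
Slc7a11: cTGATGCAAacctggagaatTTGCATCAtc
Asns: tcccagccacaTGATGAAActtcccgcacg
They lie at chr2:152344028-152344057 (minus strand) for Trib3, chr2:119351038-119351067 (plus strand) for Chac1, chr3:50443651-50443680 (minus strand) for Slc7a11 and chr6:7693214-7693243 (minus strand) for Asns. Counted from the RefSeq start as 0, the match began at 14 in Trib3, at -193 in Chac1 and at -23 in Asns, and the 2 matches of Slc7a11 spanned -66 to -40. The start of Asns in GENCODE release M21 lies 45 bases further upstream, so the Asns match falls within that annotated transcript. The start of Trib3 in that release lies 28 bases further downstream, so the Trib3 match (14 to 21) falls before it. Slc7a11 was the only member with 2 matches. A match describes the letters of a window and is no evidence of binding.

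In the libraries, 19721363 to 31935381 reads could be recovered from the normalised counts, and the members were covered by at least 31 reads (Slc7a11 in K365T with LIF, replicate 2). The 5 markers of embryonic stem cells (Pou5f1, Sox2, Sall4, Utf1 and Dppa4) summed to between 27377 and 40703 normalised counts in all 16 libraries. This sum hides opposite changes between media. In WT the mean of Utf1 went from 445 with LIF to 7209 without, that of Sox2 from 9527 to 4941 and that of Pou5f1 from 11976 to 7578. The 6 naive markers summed to 100388 to 127959 with LIF and to 5773 to 16759 without it, while the 5 formative and primed markers went from 1158 to 2533 up to 15721 to 31663. Fibroblast markers (6 genes) summed to 117 to 285 with LIF and 741 to 1333 without, with Lum at 0 in all 4 groups without LIF and Postn in 3 of them, and their part in the differences between media was not tested. Small structural RNA classes (snRNA, snoRNA, scaRNA, rRNA, ribozyme and miscellaneous RNA) took 2.20% to 4.25% of the normalised counts in 15 libraries and 5.39% in WT without LIF replicate 2.

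Levels can be set side by side between genes in TPM, which accounts for gene length. Asns, which makes asparagine from aspartate and glutamine, was the most abundant member with LIF, at 1253 ± 17.9 TPM in WT (SD, n = 2), followed by Atf4 at 484 ± 20.7 TPM and the serine synthesis gene Psat1 at 226 ± 14.0 TPM. Ddit4 (119 ± 17.4 TPM), Trib3 (103 ± 8.54 TPM), Phgdh (85.7 ± 17.2 TPM) and Chac1 (78.9 ± 1.80 TPM) formed a middle group whose neighbours in this order lay within or near the spread of their replicates. Ddit3 was at 23.7 ± 6.82 TPM. Slc7a11, the cystine and glutamate exchanger that feeds glutathione synthesis, was lowest at 0.423 ± 0.0940 TPM and never exceeded 3.48 TPM in any library. Without LIF the order at the top changed in WT, with Atf4 at 505 ± 89.6 TPM, Ddit4 at 296 ± 16.2 TPM and Asns at 273 ± 2.14 TPM, the last pair being closer together than the difference between the Ddit4 replicates.

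**Figure D1:**
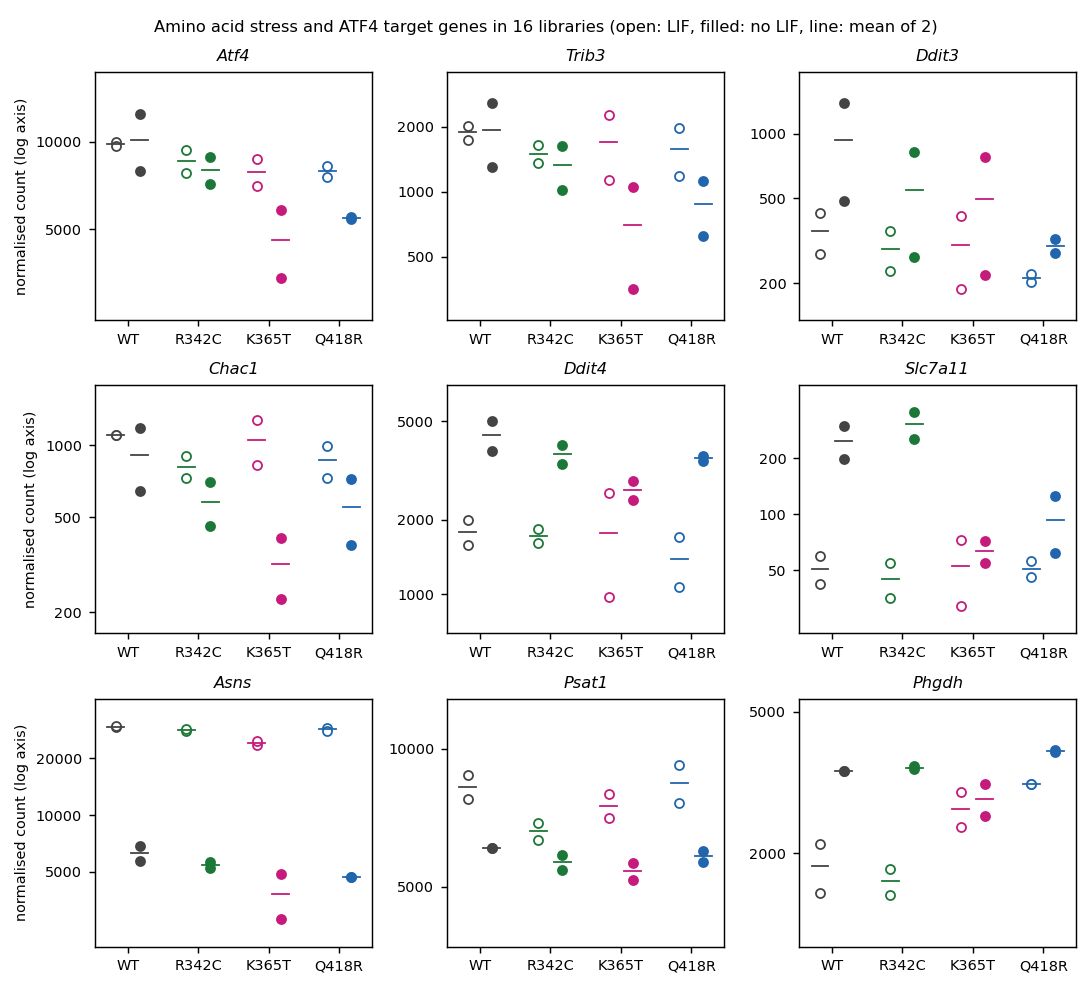
Normalised counts (log axis) of the 9 genes in each of the 16 libraries, by line; open points are libraries with LIF, filled points libraries without LIF and short lines the mean of 2 libraries. The 8 Asns values with LIF (23508 to 29564) lie above all 8 without LIF (2810 to 6879), and Slc7a11 without LIF is high in WT and R342C (199 to 355) and low in K365T and Q418R (54.7 to 125).

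Removal of LIF and the inhibitors split the members. In WT, Slc7a11, Ddit4 and Phgdh rose and Asns and Psat1 fell, 5 of 9 genes at an adjusted p under 0.05, where 48.8% of all genes tested passed (23.8% higher and 24.9% lower). Atf4, Trib3, Chac1 and Ddit3 did not pass in WT. The median log2 difference of the 9 genes was 0.02, beside -0.01 over all genes. Called members numbered 4 in R342C (47.2% of all genes), 5 in K365T (44.7%) and 3 in Q418R (46.5%), so 3 to 5 of 9 members stood beside a background of 44.7% to 48.8%.

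Asns fell in all 4 lines. With LIF its normalised counts were 29266 and 29564 (WT), 27912 and 28512 (R342C), 23508 and 24560.4 (K365T) and 29061 and 27693 (Q418R). Without LIF they were 5722 and 6879, 5668 and 5222, 4873 and 2809.6 and 4714 and 4670.4, in the same order of lines. No library without LIF came near any library with LIF, and the lowest value, in K365T replicate 2, stood below all others. The log2 difference between media was -2.23 (SE 0.18, adjusted p = 2.05e-07) in WT, a level 4.67 times lower. In the mutants it was -2.37 (adjusted p = 1.15e-07) in R342C, -2.70 (adjusted p = 4.46e-08) in K365T and -2.59 (adjusted p = 5.33e-08) in Q418R. Asns was called in every line under all 15 alternatives of processing and of libraries left out.

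The serine synthesis genes went opposite ways in WT. Phgdh encodes the dehydrogenase that commits 3-phosphoglycerate to serine, and Psat1 the aminotransferase that acts next in that pathway. Phgdh was at 1546 and 2121 normalised counts with LIF and 3399 and 3408 without LIF in WT, and at 1804 and 1524 and then 3511 and 3448 in R342C. In both lines the libraries without LIF were all higher, and the 2 libraries without LIF of each line lay close together. The rise was 0.91 (SE 0.15, adjusted p = 0.00021) on the log2 scale in WT and 1.07 (SE 0.15, adjusted p = 5.23e-05) in R342C. In K365T, Phgdh was at 2967 and 2361 with LIF and 3133 and 2538 without, and in Q418R at 3136 and 3127 and 3860.4 and 3891. The media overlapped in K365T but not in Q418R, and neither difference passed, at 0.09 (adjusted p = 0.67) in K365T (95% interval -0.24 to 0.42) and 0.31 (adjusted p = 0.119) in Q418R (95% interval -0.02 to 0.64). The Q418R difference did pass on the TPM scale, at 0.46 (adjusted p = 0.0285), and when its 4 libraries were fitted alone, at 0.31 (adjusted p = 0.0368).

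Psat1 varied least among the members, by 1.78 times between its lowest and highest library. Its counts with LIF were 7784 and 8760.0 (WT), 6877 and 6334 (R342C), 7953 and 7052 (K365T) and 7597 and 9201 (Q418R). Without LIF they were 6060.1 and 6078, 5871 and 5437, 5638 and 5169 and 5987 and 5671, below the same line's values with LIF in every case. Psat1 fell by 0.44 in WT (adjusted p = 0.00541), by 0.47 in K365T (adjusted p = 0.00402) and by 0.52 in Q418R (adjusted p = 0.00189) on the log2 scale, and the R342C difference of -0.22 (adjusted p = 0.129) did not pass. Leaving out the LIF replicate 2 of WT ended the WT call, at -0.36 (adjusted p = 0.0626).

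Slc7a11 rose most, and it did so in WT and R342C. Its normalised counts with LIF were 42.1 and 59.4 (WT), 54.3 and 35.4 (R342C), 73.0 and 31.8 (K365T) and 56.0 and 45.8 (Q418R), ranges that overlapped between lines. Without LIF the counts were 199 and 299.7 (WT), 355 and 256 (R342C), 71.7 and 54.7 (K365T) and 61.6 and 125 (Q418R). All 4 WT and R342C libraries without LIF were above all 4 of K365T and Q418R, and in K365T the 2 media overlapped. The log2 difference between media was 2.20 (SE 0.41, adjusted p = 0.000422) in WT and 2.67 (SE 0.41, adjusted p = 8.03e-05) in R342C, levels 4.91 and 6.81 times higher. In K365T it was 0.34 (adjusted p = 0.529), with a 95% interval of -0.52 to 1.21, and in Q418R 0.75 (adjusted p = 0.145), with an interval of -0.12 to 1.62. Without the no LIF replicate 1 of Q418R the Q418R difference passed, at 1.24 (adjusted p = 0.046).

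Ddit4 encodes REDD1, which restrains the growth kinase complex mTORC1 and is also induced by low oxygen and glucocorticoids. It was at 1579 and 2004 normalised counts in WT with LIF and 3803 and 4995 without, at 1843 and 1612 and then 4000.4 and 3359.8 in R342C, and at 1075 and 1699 and then 3628 and 3470.5 in Q418R. The media did not overlap in any of these 3 lines, and Ddit4 rose by 1.29 (adjusted p = 0.00464) in WT, 1.09 (adjusted p = 0.0137) in R342C and 1.39 (adjusted p = 0.00294) in Q418R on the log2 scale. In K365T the counts were 2574 and 973 with LIF and 2398 and 2875 without, so the media overlapped through replicate 1 with LIF, and the difference of 0.73 (adjusted p = 0.087) did not pass. Without that library it was 1.43 (adjusted p = 0.000614), and without the LIF replicate 2 of K365T it was 0.03 (adjusted p = 0.944), so the value rested on which library with LIF was kept. The R342C call was lost without the LIF replicate 2 of R342C, at 0.99 (adjusted p = 0.0798), and without the no LIF replicate 1 of R342C, at 0.96 (adjusted p = 0.0853).

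Atf4 itself did not pass in WT, R342C or Q418R. Its normalised counts in WT were 9946 and 9650.3 with LIF and 7927 and 12400.3 without, the values without LIF lying on both sides of those with LIF, and the log2 difference was 0.02 (SE 0.23, adjusted p = 0.958). R342C had 9351 and 7807 with LIF and 8845 and 7151 without, also overlapping, for a difference of -0.10 (adjusted p = 0.743). In Q418R the counts went from 7565 and 8251 to 5516 and 5446, which did not overlap, and the difference was -0.53 (adjusted p = 0.0728). This Q418R difference did pass when its 4 libraries were fitted alone (adjusted p = 0.00353). K365T had 8739.9 and 7048 with LIF and 5804 and 3413 without, and here Atf4 fell, by 0.82 on the log2 scale (SE 0.23, adjusted p = 0.00919). That call was lost without the no LIF replicate 2 of K365T, the lowest library, at -0.44 (adjusted p = 0.138), and without the LIF replicate 1 of K365T, at -0.66 (adjusted p = 0.0837).

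For Trib3 and Chac1 the medium difference ranked the lines alike, from WT through R342C and Q418R to K365T. Trib3 encodes a pseudokinase that feeds back on ATF4, and Chac1 an enzyme that cleaves glutathione. Trib3 counts with LIF and then without were 1748 and 2025 and then 1307 and 2569 for WT, 1647 and 1363 and then 1631 and 1026 for R342C, 2281 and 1139 and then 1053 and 357 for K365T, and 1179.5 and 1971 and then 628 and 1129.7 for Q418R. Chac1 counts were 1109.7 and 1108 and then 644 and 1186 for WT, 902 and 729.7 and then 703 and 457 for R342C, 1278 and 824 and then 411 and 228 for K365T, and 730.4 and 999.6 and then 384 and 724 for Q418R. The 2 media did not overlap in K365T for either gene, nor in R342C and Q418R for Chac1 and in Q418R for Trib3. Both genes fell in K365T, Trib3 by 1.39 (SE 0.48, adjusted p = 0.028) and Chac1 by 1.73 (SE 0.36, adjusted p = 0.00129) on the log2 scale. In the other lines the differences were -0.04, -0.21 and -0.85 for Trib3 and -0.34, -0.51 and -0.69 for Chac1 (WT, R342C, Q418R), with adjusted p from 0.133 to 0.957. The Trib3 difference in Q418R did pass when its 4 libraries were fitted alone (adjusted p = 0.0423). The Trib3 call in K365T was lost without the LIF replicate 1 of K365T, at -0.89 (adjusted p = 0.243), and without the no LIF replicate 2 of K365T, at -0.61 (adjusted p = 0.326), and was not made by DESeq2, while that of Chac1 held without each library in turn. Chac1 in Q418R passed without the no LIF replicate 2 of Q418R, at -1.15 (adjusted p = 0.0413).

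Ddit3 encodes CHOP, a transcription factor that promotes death in prolonged stress. Its counts with LIF and then without were 273 and 426 and then 486 and 1384 for WT, 352 and 229.9 and then 822 and 265 for R342C, 415 and 189 and then 774 and 220.0 for K365T, and 203 and 222 and then 278 and 322 for Q418R. Replicates without LIF differed by a factor of nearly 3 or more in WT, R342C and K365T, and the media overlapped in R342C and K365T. No Ddit3 difference between media passed, at 1.26 (adjusted p = 0.107) in WT, 0.71 (adjusted p = 0.37) in R342C, 0.56 (adjusted p = 0.5) in K365T and 0.49 (adjusted p = 0.547) in Q418R. The WT difference did pass when its 4 libraries were fitted alone (adjusted p = 0.0436). Without the no LIF replicate 1 of WT the WT value rested on the high library and passed, at 2.01 (adjusted p = 0.0293).

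**Figure D2:**
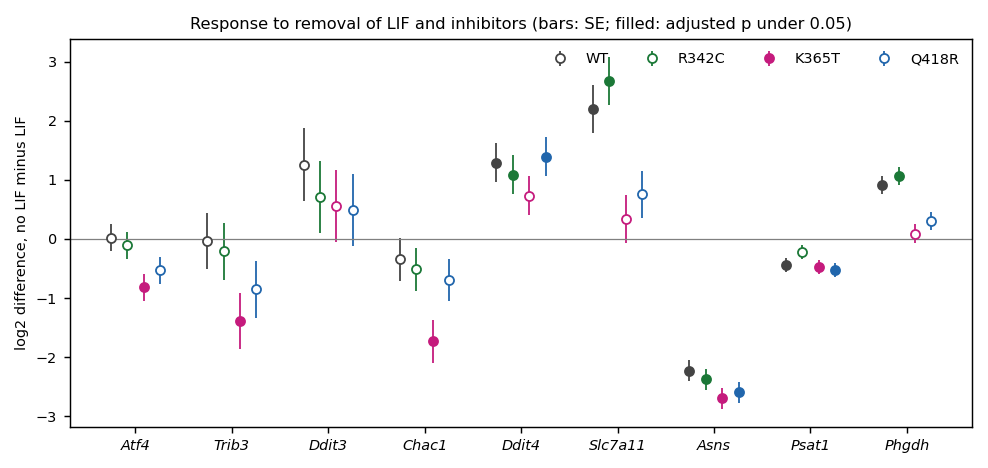
Log2 difference between no LIF and LIF (vertical axis) for each gene in the 4 lines, from limma, with bars for the SE; filled points have an adjusted p under 0.05. Asns is filled in every line at -2.23 to -2.70, Slc7a11 and Phgdh are filled in WT and R342C, and Atf4, Trib3 and Chac1 are filled in K365T.

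Whether a mutant line responded differently from WT was tested as the difference of the 2 responses. No member passed in R342C, K365T or Q418R by limma, where 0%, 0.659% and 0.141% of all genes were called. At an unadjusted p under 0.05 there were 0, 4 and 2 of 9 members, beside 1.62%, 11.7% and 8.41% of all genes. edgeR also called none, and DESeq2 called 2, both in K365T. The K365T response was lower than that of WT for all 9 members, with a difference of responses of -1.86 (adjusted p = 0.178) for Slc7a11, -1.39 (adjusted p = 0.279) for Chac1, -1.35 (adjusted p = 0.474) for Trib3, -0.84 (adjusted p = 0.315) for Atf4 and -0.82 (adjusted p = 0.119) for Phgdh on the log2 scale. Those of Ddit3, Ddit4 and Psat1, at -0.70, -0.56 and -0.03, turned positive when some single library was left out. DESeq2 gave adjusted p = 0.0410 for Slc7a11 and 0.0421 for Phgdh. With a replicate block within each line, added after seeing the data, Trib3 (adjusted p = 0.0183), Chac1 (0.0214), Slc7a11 (0.0440) and Phgdh (0.0216) passed by limma in K365T, where 2.69% of all genes did. Asns passed only without the no LIF replicate 1 of K365T, at -0.87 (adjusted p = 0.0245). The Q418R response was lower for 8 members, Chac1 and Psat1 among them turning positive when some single library was left out, with -1.45 (adjusted p = 0.495) for Slc7a11 and -0.60 (adjusted p = 0.449) for Phgdh. These differences share the WT libraries. By limma without the block, calls made in WT but not in K365T or Q418R were not shown to differ between lines, and for Slc7a11 and Phgdh in K365T this depended on the block and the tool.

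With LIF, the only calls between lines were at Phgdh, in K365T and Q418R but not in R342C against WT. R342C had no member called against WT (0.417% of all genes were), 1 member, Psat1, at an unadjusted p under 0.05 (5.66% of all genes), and none by edgeR or DESeq2; its 9 log2 differences ran from -0.45 to -0.05. K365T and Q418R each had 1 of 9 members called, Phgdh, where 11.1% and 4.25% of all genes passed. In K365T this count was no more than the share of all genes. The 2 WT libraries had 1546 and 2121 normalised counts and the R342C libraries 1804 and 1524, while K365T had 2967 and 2361 and Q418R 3136 and 3127. Every K365T and Q418R library was above every WT and R342C library. Phgdh was higher than in WT by 0.55 (SE 0.15, adjusted p = 0.0356) in K365T and 0.79 (SE 0.15, adjusted p = 0.0116) in Q418R on the log2 scale, ratios of 1.45 and 1.71 of the means. It was likewise higher than in R342C, by 0.67 (adjusted p = 0.0158) in K365T (9.08% of all genes called) and 0.92 (adjusted p = 0.00703) in Q418R (3.12%), while K365T and Q418R differed by -0.24 (adjusted p = 0.409), with a 95% interval of -0.57 to 0.09. Each of these calls was lost without some single library. Against WT, K365T was at 0.32 (adjusted p = 0.324) without WT replicate 1 and 0.38 (adjusted p = 0.241) without K365T replicate 1. Q418R was at 0.56 (adjusted p = 0.149) without WT replicate 1, 0.79 (adjusted p = 0.104) without Q418R replicate 1 and 0.79 (adjusted p = 0.0716) without Q418R replicate 2. Against R342C, K365T was at 0.55 (adjusted p = 0.159) without R342C replicate 2 and 0.51 (adjusted p = 0.135) without K365T replicate 1, and Q418R at 0.79 (adjusted p = 0.123) without R342C replicate 2 and 0.91 (adjusted p = 0.0704) without Q418R replicate 1. No other member passed between any lines with LIF.

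Without LIF, 5 members were lower in K365T than in WT: Atf4, Trib3, Chac1, Asns and Slc7a11. Of all genes, 14.7% passed in this comparison and 7.33% were lower. All 9 log2 differences were below 0 (that of Psat1 was 0.0024 on the TPM scale), with a median of -0.98 beside -0.01 over all genes. Atf4 had 7927 and 12400.3 normalised counts in WT and 5804 and 3413 in K365T, a log2 difference of -1.15 (SE 0.23, adjusted p = 0.00534). Slc7a11 had 199 and 299.7 in WT and 71.7 and 54.7 in K365T, and differed by -1.90 (SE 0.41, adjusted p = 0.00803). Asns, at 5722 and 6879 in WT and 4873 and 2809.6 in K365T, differed by -0.76 (SE 0.18, adjusted p = 0.0139). The feedback gene Trib3 differed by -1.57 (SE 0.48, adjusted p = 0.0401) and the glutathione-cleaving enzyme gene Chac1 by -1.50 (SE 0.36, adjusted p = 0.0147). Libraries of K365T were below both WT libraries for each of these 5 genes. Ddit3 at -0.98 (adjusted p = 0.314), Ddit4 at -0.73 (adjusted p = 0.153), Phgdh at -0.27 (adjusted p = 0.265) and Psat1 at -0.17 (adjusted p = 0.365) did not pass.

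This K365T result rested on particular libraries. Leaving out the no LIF replicate 2 of WT, the library with the high structural RNA share, ended all 5 calls, at -0.83 (adjusted p = 0.0661) for Atf4, -1.61 (adjusted p = 0.0823) for Slc7a11, -0.63 (adjusted p = 0.117) for Asns, -1.09 (adjusted p = 0.294) for Trib3 and -1.06 (adjusted p = 0.153) for Chac1, and 4.87% of all genes were then called. Leaving out the no LIF replicate 2 of K365T, the library with the lowest Atf4, Trib3, Chac1 and Asns, also ended all 5, at -0.77 (adjusted p = 0.0504) for Atf4, -1.71 (adjusted p = 0.0529) for Slc7a11, -0.36 (adjusted p = 0.109) for Asns, -0.80 (adjusted p = 0.328) for Trib3 and -1.08 (adjusted p = 0.123) for Chac1, with 6.93% of all genes called. The 5 calls held without replicate 1 of either group. Trib3 was not called by edgeR (adjusted p = 0.0594), DESeq2 (0.0655) or on the TPM scale (0.0675), and no gene of the whole table passed when the 4 libraries of WT and K365T were fitted alone. The same libraries differed in the markers of the exit from the naive state. In K365T without LIF the 6 naive markers summed to 16759 and 6728 normalised counts in replicates 1 and 2, and the 5 formative and primed markers to 16873 and 31663. In WT without LIF the naive sums were 7495 and 9866 and the formative and primed sums 24549 and 15721. Fibroblast markers summed to 852 and 1090 in K365T and 817 and 1333 in WT, which overlapped. The 4 mesoderm markers (T, Mixl1, Eomes and Mesp1) summed to 144 and 484 in K365T and 112 and 140 in WT. Sums of endoderm, neuroectoderm and trophectoderm markers overlapped between K365T and WT. The part of these differences in the result was not tested.

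**Figure D3:**
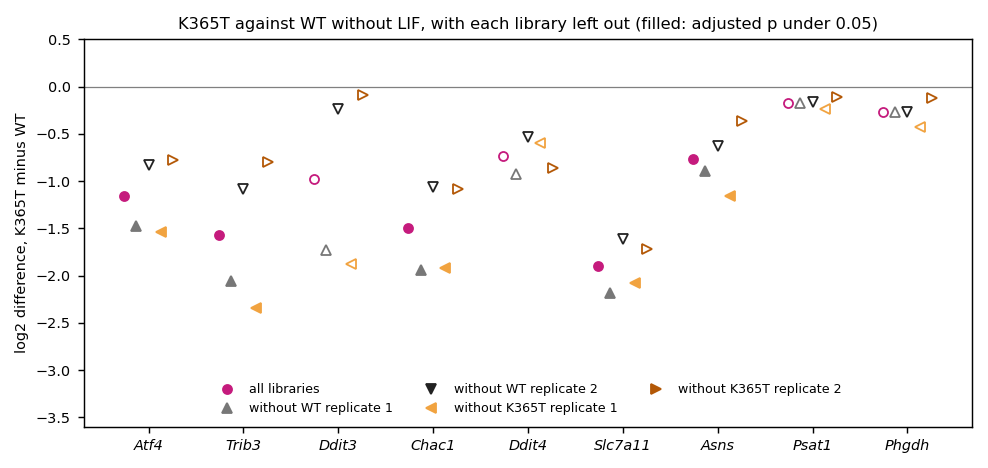
Log2 difference of K365T from WT without LIF (vertical axis) for the 9 genes, with all libraries and with each of the 4 libraries left out in turn; filled symbols have an adjusted p under 0.05. All symbols lie below 0, and none is filled without WT replicate 2 or without K365T replicate 2.

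Q418R without LIF had 1 member lower than WT, Atf4, where 6.15% of all genes passed and 3.13% were lower. Its Atf4 counts of 5516 and 5446 were below both WT libraries, and the log2 difference was -0.85 (SE 0.23, adjusted p = 0.0398). Slc7a11 differed by -1.43 (adjusted p = 0.0518), just outside the threshold, and passed without WT replicate 1, at -1.72 (adjusted p = 0.0469), and without Q418R replicate 2, at -1.92 (adjusted p = 0.0377). Ddit3 at -1.44 (adjusted p = 0.178), Trib3 at -1.12 (adjusted p = 0.178), Chac1 at -0.73 (adjusted p = 0.249) and Asns at -0.42 (adjusted p = 0.184) did not pass. The Atf4 call was lost without WT replicate 2, at -0.53 (adjusted p = 0.376), without Q418R replicate 1, at -0.86 (adjusted p = 0.187), and without Q418R replicate 2, at -0.85 (adjusted p = 0.121). It was also lost on the TPM scale, at -0.66 (adjusted p = 0.0847), and with upper quartile scaling, at -0.81 (adjusted p = 0.0616). R342C had no member called against WT by limma, edgeR or DESeq2, none at an unadjusted p under 0.05 (5.67% of all genes), and 0.479% of all genes called, with log2 differences from -0.81 (Ddit3) to 0.30 (Slc7a11). The comparisons of the 3 mutants with WT share the WT libraries.

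Compared among themselves without LIF, the mutants differed at Slc7a11 and Atf4. Slc7a11 in K365T was lower than in R342C by 2.20 on the log2 scale (SE 0.41, adjusted p = 0.0057), a ratio of 4.83 of the means, and Atf4 differed by -0.84 (SE 0.23, adjusted p = 0.0366), 2 of 9 members where 8.8% of all genes passed. Q418R was lower than R342C at Slc7a11, with a log2 difference of -1.73 (SE 0.41, adjusted p = 0.0434), 1 of 9 members where 2.05% of all genes passed. These comparisons do not use the WT libraries. The Slc7a11 call in K365T was lost without R342C replicate 1, at -1.96 (adjusted p = 0.0557). That in Q418R was lost without R342C replicate 1 (-1.50), R342C replicate 2 (-1.96), Q418R replicate 1 (-1.24) or Q418R replicate 2 (-2.22), and edgeR did not make it. The Atf4 call in K365T was lost without R342C replicate 1 (-0.68), R342C replicate 2 (-0.99) or K365T replicate 2 (-0.45), and edgeR did not make it (adjusted p = 0.0524). Without K365T replicate 1, Asns passed against R342C at -0.95 (adjusted p = 0.0013) and against Q418R at -0.74 (adjusted p = 0.0108), and Trib3 against R342C at -1.85 (adjusted p = 0.029). K365T and Q418R had no member called against each other with all libraries, by limma, edgeR or DESeq2. Of all genes, 6.08% were called with LIF and 3.37% without. At an unadjusted p under 0.05 there was no member with LIF, beside 20.9% of all genes, and 2 of 9 without LIF, Chac1 and Phgdh, beside 19.1%.

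The members differed widely in how well replicates matched. The residual SD of Ddit3 (0.80 on the log2 scale) was above that of 99.4% of all genes tested and that of Trib3 (0.62) above 97.1%. Slc7a11, Chac1 and Ddit4 stood at 88.1%, 87.4% and 83.1%, Atf4 at 60.2%, Asns at 44.7%, Phgdh at 33.7% and Psat1 at 11.5%. In WT without LIF, replicate 2 was higher than replicate 1 by 1.50 for Ddit3, 0.97 for Trib3, 0.88 for Chac1 and 0.65 for Atf4 on the log2 scale. In K365T without LIF the same genes were lower in replicate 2, with differences of -1.80, -1.55, -0.84 and -0.77, and in R342C without LIF the difference was -1.62 for Ddit3 and -0.67 for Trib3. The median absolute difference between the 2 libraries of a group, over 11799 genes, was 0.123 to 0.233.

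**Figure D4:**
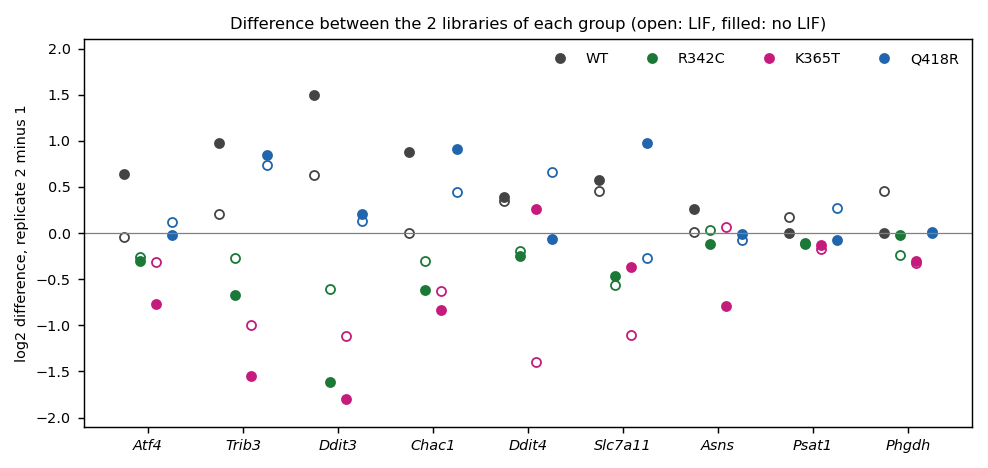
Log2 difference between replicate 2 and replicate 1 (vertical axis) for each gene and group; open points are groups with LIF and filled points groups without LIF. Without LIF, Ddit3 ranges from -1.80 in K365T to 1.50 in WT, while Psat1 stays close to 0.

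Likeness of pattern was measured as the root mean square difference over the 16 libraries between centred log2 values. It was ranked among 11157 genes with a mean of at least 100, with clone-type names and mitochondrially encoded genes left out. Trib3 and Chac1 were each other's nearest gene, at 0.24. Atf4 was nearest to Scpep1 (0.13), Eif4a2 (0.16) and Sars (0.18), the last encoding the cytosolic seryl-tRNA synthetase, and Trib3 held place 591 among the genes most like Atf4. Nearest to Asns were Fbxo6 (0.13), Ckb (0.16) and Tfeb (0.21), while the nearest to Slc7a11 were Slc30a3 at 0.41, Gpr157 at 0.43 and Optn at 0.45. Ddit3 was nearest to Map3k13 (0.36), Ddit4 to Ptprs (0.20), Psat1 to Mrps5 (0.11) and Phgdh to Zfp827 (0.17). These values describe libraries that share medium, line and preparation.

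Of the wider pathway, more amino acid enzymes and tRNA synthetases fell than rose without LIF. In WT, 12 of 20 cytosolic aminoacyl-tRNA synthetases, which charge tRNAs, fell and 1 rose, with a median log2 difference of -0.41 beside -0.01 over all genes, led by Tars (-0.81) and Mars1 (-0.79). Falls numbered 8 in R342C, 14 in K365T and 14 in Q418R, where 23.9%, 23% and 23.5% of all genes were lower (24.9% in WT). Among 9 other enzymes of serine, glycine and one-carbon metabolism, 4 fell, with Aldh1l2 at -2.24 and Shmt2 at -1.15, while Gldc, which cleaves glycine, rose by 1.73, and the list median was -0.26. Of 10 other amino acid enzymes 6 fell, including Bcat1 (-1.94), which transaminates branched-chain amino acids, and Cth (-1.67), which makes cysteine from cystathionine, and 3 rose, including Aass (2.15), which degrades lysine (median -0.59). Amino acid transporters were mixed (median 0.15), with 4 of 12 higher, such as Slc43a1 (2.29), and 2 lower, Slc7a1 (-2.14), which imports arginine and lysine, and Slc1a5 (-1.18), which carries glutamine.

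The lists of upstream and parallel genes are given beside a background of 23.8% of all genes higher and 24.9% lower in WT. Among 10 transcription factors of the stress response 4 fell in WT and none rose (median -0.32), with Atf5, a factor related to ATF4, at -1.54 and Jdp2 at -1.15. Of 10 eIF2alpha kinases and their regulators (median -0.02), 3 fell, including the double-stranded RNA sensor Eif2ak2 (-1.09), and 1 rose, Impact (1.32), which restrains GCN2. Other reported ATF4 targets had 3 of 12 higher and 3 lower (median 0.09), both near that background, with the secreted stress factor Gdf15 at -2.34 and the cell cycle inhibitor Cdkn1a at -1.81. Chaperones and degradation genes of the endoplasmic reticulum had 4 of 15 higher and 3 lower (median 0.04), also near or under it. NRF2 and glutathione genes had 5 of 11 higher and 1 lower (median 0.41), with Gclm, a subunit of the enzyme that starts glutathione synthesis, at 2.08. Hypoxia-responsive genes had 4 of 10 higher and 2 lower (median 0.88), with Bnip3, a mitophagy receptor, at 3.08 and Pdk1 at 2.15, and regulators of mTORC1 had 3 of 12 higher and 2 lower (median -0.07), with Tsc1 at 1.32.

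**Figure D5:**
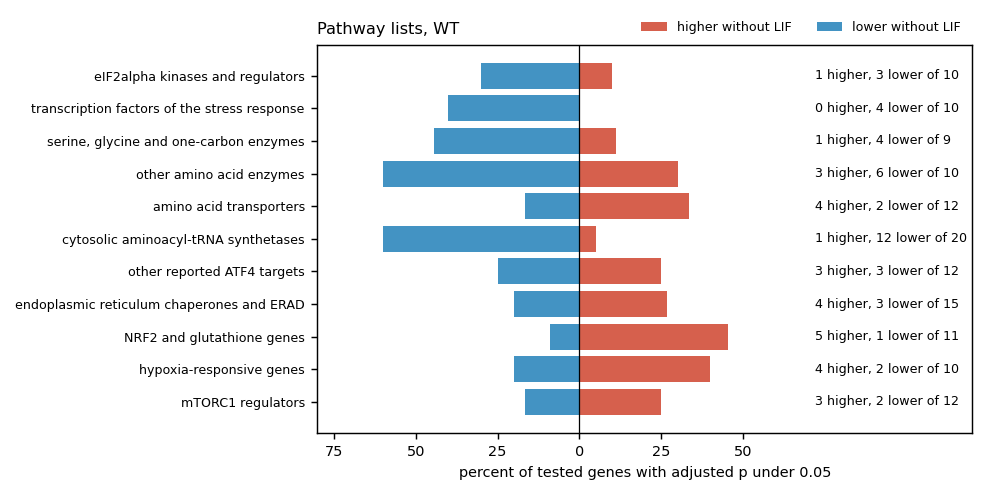
Percent of the tested genes of each pathway list (horizontal axis) that were higher (right) or lower (left) without LIF in WT at an adjusted p under 0.05, with the counts at the right. The tRNA synthetases had 12 of 20 lower and the NRF2 and glutathione genes 5 of 11 higher, where 23.8% of all genes were higher and 24.9% lower.

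Beside the 5 members lower in K365T than in WT without LIF, the lists had 7 of 20 tRNA synthetases lower and 2 higher, 5 of 12 transporters lower, 4 of 10 stress transcription factors lower, 3 of 10 hypoxia-responsive genes lower, and 3 lower and 2 higher of 10 amino acid enzymes, where 7.33% of all genes were lower and 7.38% higher. In that order the list medians were -0.23, -0.41, -0.34, -0.51 and -0.38, beside -0.01 over all genes. These counts cover only part of the 11 pathway lists and do not describe the others, among them the other reported ATF4 targets. They come from all libraries, and how they change without replicate 2 of WT or of K365T is not given here. Slc43a1 was at -0.90, Slc1a5 at -0.83, Jdp2 at -1.75, Atf5 at -1.12 and Gclm at -1.08 on the log2 scale, all called. Gclm belongs to the NRF2 and glutathione list, which is not counted above. Of the same list, Hmox1 (-0.25), Txnrd1 (-0.16) and Me1 (-0.09) were not called. Eif2ak2 was higher, at 1.42, and so was Cdkn1a, at 1.04. Some of these genes also differed between K365T and WT with LIF. There Eif2ak2 (1.32) was higher and Atf5 (-1.13), Slc1a5 (-0.76) and Cdkn1a (-0.55) were lower, all called. Slc43a1 (-0.21), Jdp2 (-0.79) and Gclm (-0.34) were not called with LIF. Eif2ak2 was also higher than in WT with LIF in R342C (1.10) and Q418R (0.86), both called. In R342C against WT without LIF, 1 gene of the 11 pathway lists was called, Eif2ak2, at 0.84.

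The members are spread over 6 autosomes of the mm10 build in GENCODE release M21: Chac1 (chromosome 2, 119351229 to 119354381) and Trib3 (2, 152337422 to 152344032), Slc7a11 (3, 49892526 to 50443614) and Phgdh (3, 98313170 to 98339990), Asns (6, 7675169 to 7693254), Ddit4 (10, 59949669 to 59951834) and Ddit3 (10, 127290774 to 127296288), Atf4 (15, 80255184 to 80257541) and Psat1 (19, 15904678 to 15947337). All are annotated as protein-coding. Genes within 5 Mb of each member, 17 to 160 per member, had median differences between each mutant and WT from -0.23 to 0.13 on the log2 scale. Called members were picked by their differences, so they cannot be weighed against these medians. Around Atf4 (160 genes) the medians with LIF and without were -0.21 and -0.18 in K365T, -0.13 and -0.18 in Q418R and -0.08 and -0.07 in R342C. Those of all genes were -0.02 to 0.01. A local effect was not tested. The symbol Ddit3 has another protein-coding entry (127290829 to 127293753) inside the one above and on the same strand. How reads of these entries were assigned is not given in the sources used here. Ddit3 also shares 68 bases of exon with the methionyl-tRNA synthetase gene Mars1 on the opposite strand. The kit kept strand, but whether the counting used it is not given in the sources used here, so some Ddit3 reads could belong to that neighbour.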

How the data were processed

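Stranded total RNA libraries depleted of ribosomal RNA (500 ng of RNA, paired reads of 150 bases) were processed by the authors with Trim Galore, STAR and DESeq2 against mm10, per the submitters' processing notes. The counting tool and annotation are not given in the sources used here. The authors deposited 2 tables of expression, a signal named as normalised counts, and TPM. Values of the signal table above 0 and up to 300 were whole multiples of 1 step per library (100% within 0.05). Larger values were not checked in this way. All values were divided by the step of their library and rounded, which gave the read counts.

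The test was limma 3.58.1 (R 4.3.3) on log2(normalised count + 4), with 1 mean for each of 8 groups, 8 residual degrees of freedom, 17757 genes with a mean of at least 10, and Benjamini-Hochberg adjustment within each of 19 comparisons at 0.05. Log2 differences are on this scale, which understates changes of low genes, unless another scale, scaling or tool is named. Alternatives were pseudocounts of 1 and 16, a mean of at least 50, no filter, TPM (plus 0.1), upper quartile scaling, only the compared libraries, edgeR 4.0.16 quasi-likelihood and DESeq2 1.42.0 on the recovered reads, replicate blocks, and each library left out. The procedure was tested on simulated data, drawn with 1 setting of spread for all genes and with few genes changed. The members differ widely in spread, so that run does not show how the tests perform on them. The members, lists and tests were chosen with earlier results of these data known. From each pathway list up to 4 genes passing in WT, by size of the medium difference, were eligible to be named, and for likeness up to 3 genes per member. Promoter sequences came from RefSeq (GRCm38.p6). No library was left out.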

Additional observations from a re-analysis of the deposited data

How the results depend on the processing

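None of the 30 member differences called by limma changed sign under any alternative run. Of the 141 not called, 66 changed sign under at least 1 alternative, 60 of them with a library left out, and none passed with the opposite sign. Among these in K365T, no LIF against LIF, were Slc7a11 (-0.21) and Phgdh (-0.07) without the LIF replicate 2 and Ddit3 (-0.34) without the no LIF replicate 1, and Atf4 in WT was at -0.31 without the no LIF replicate 2. The count of members called was within 1.5 times the reported count except as follows. Libraries of the compared groups alone gave 6 in Q418R for no LIF against LIF (3 reported), and 0 for K365T against WT with LIF and without LIF, Q418R against WT without LIF, and K365T and Q418R against R342C without LIF, where the 4 libraries alone called 0 genes of all tested. No filter gave 0 for K365T against WT with LIF, Q418R against WT without LIF and Q418R against R342C without LIF, and 1 for K365T against R342C without LIF (2 reported). For Q418R against WT without LIF (1 reported), TPM and upper quartile scaling gave 0, and a pseudocount of 16 and DESeq2 gave 2. For Q418R against R342C without LIF (1 reported), a pseudocount of 1, TPM, upper quartile scaling and edgeR gave 0. For K365T against R342C without LIF, upper quartile scaling and edgeR gave 1. DESeq2 gave 2 for the K365T response against that of WT (0 reported). The cause was not tested beyond the smaller number of libraries or larger number of genes that a setting itself fixes. With each library left out in turn, members called were 4 to 6 (WT), 3 to 4 (R342C), 3 to 5 (K365T) and 3 to 4 (Q418R) for no LIF against LIF. They were 0 to 1 for K365T and for Q418R against WT with LIF, 0 to 5 and 0 to 2 without LIF, 0 to 1 for the K365T response, 0 to 1 for K365T and for Q418R against R342C with LIF, 0 to 4 and 0 without LIF, and 0 to 1 for K365T against Q418R without LIF.

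Replicate numbers are shared across groups. With only 2 libraries a group they cannot establish pairing. Over all genes, replicate differences of the 2 media of a line correlated at 0.384, 0.357, 0.384 and 0.422 (WT, R342C, K365T, Q418R), while those of R342C and K365T against WT without LIF were at -0.520 and -0.504. A replicate block gave 0 for Q418R against R342C without LIF and left the other counts within 1.5 times. A replicate block within each line, added after seeing the data, gave 7 in Q418R for no LIF against LIF and 4 for the K365T response. For no LIF against LIF it added Atf4 (adjusted p = 0.00969), Trib3 (0.00148), Chac1 (0.00839) and Phgdh (0.0345) in Q418R, Ddit3 (0.00130) in WT, Chac1 (0.0369) and Ddit3 (0.0343) in R342C and Ddit4 (0.0456) in K365T. A block with the numbers of R342C and K365T crossed, also added later, gave 5 for Q418R against WT and for K365T against R342C without LIF, 2 for Q418R against R342C with LIF and 2 for K365T against Q418R without LIF. The crossed lines are those with the negative correlations above. Such a pairing follows the same replicate differences that it then removes, so these counts are no independent support.

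On the TPM scale the median of all genes against WT was 0.15 in K365T and 0.19 in Q418R without LIF, 0.11 and 0.07 with LIF, 0.17 and 0.13 in R342C without and with LIF, and 0.13 (no LIF against LIF) in Q418R. The share of calls that were higher was 75.7% under TPM and 64.1% under upper quartile scaling for K365T against WT without LIF (50.2% reported), 77.0% and 60.0% for Q418R (49.2%), 78.4% under TPM for K365T and 68.1% for Q418R with LIF (57.9% and 43.9%), 60.4% under TPM for no LIF against LIF in Q418R (49.4%), and 65.2% under upper quartile scaling for K365T against R342C without LIF (50.1%). It was 45.5% and 48.3% under TPM and upper quartile scaling for Q418R against R342C without LIF (34.6%), and 60.7% under TPM for the K365T response (50.4%). Slc7a11 had the fewest reads of the members, at least 31 per library.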
